A study of Mus musculus with 6 samples.

Results

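Transcripts of 10 chemokine ligands, chosen by their gene symbols (Ccl2, Ccl3, Ccl4, Ccl5, Ccl6, Ccl7, Ccl9, Cxcl2, Cxcl10 and Cxcl16), were followed in mouse macrophages exposed to polystyrene micro- and nanoplastics (MNP). All 10 were found among the 40213 genes of the count files. Bone marrow from C57BL/6 mice, for which no other genotype, age or sex is labelled, was cultured for 4 days with macrophage colony-stimulating factor (25 ng/ml) in medium with 10% serum, which yields bone marrow-derived macrophages. The MNP group (3 libraries) then received 50 µg of polystyrene particles for 24 h, and the control group (3 libraries) was left without particles. The labels give neither the particle size nor the volume, and do not say whether the libraries of a group came from separate animals or cultures, so p-values measure the spread between these libraries, which may be technical.

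Chemokines are small secreted proteins that direct the migration of leukocytes by binding G protein-coupled receptors. They are classed by the spacing of their first cysteines into CC (Ccl) and CXC (Cxcl) ligands. Macrophages are a main source of them: CC ligands mostly recruit monocytes, T cells and other macrophages, while CXC ligands recruit neutrophils (Cxcl2) or activated T cells (Cxcl10). Many of their genes are induced by NF-kB, the transcription factor of inflammatory signalling, and some by interferon.

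Of the 10 ligands, 6 fell after MNP, 0 rose and 4 did not pass the test. The ligands that fell were the interferon-inducible Cxcl10 (5.15-fold lower), the neutrophil attractant Cxcl2 (2.59-fold), Ccl6 (2.49-fold), the monocyte attractants Ccl2 (1.85-fold) and Ccl7 (1.44-fold), and the membrane-bound Cxcl16 (1.27-fold). Among all 12893 genes tested, 8.35% were called lower and 9.11% higher. The 10 ligands were chosen with earlier results of these data known, so the comparison with all genes is a description only. The test was edgeR's quasi-likelihood test, and an adjusted p under 0.05 (Benjamini-Hochberg, over all tested genes) counted as a change. The median log2 fold change of the 10 ligands was -0.71, and that of all tested genes was -0.01. In 5 ligands (Ccl2, Ccl6, Cxcl2, Cxcl10 and Cxcl16) every MNP library lay below every control library, a separation seen in 17.4% of all tested genes. The call of Ccl7 was the least secure of the 6. It was lost with limma-voom (adjusted p = 0.0529) and when control 2, control 3, MNP 1 or MNP 3 was left out (adjusted p = 0.159, 0.171, 0.144 and 0.205). In bulk samples such as these, fewer cells of a type and less RNA per cell cannot be told apart.

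**Figure D1:**
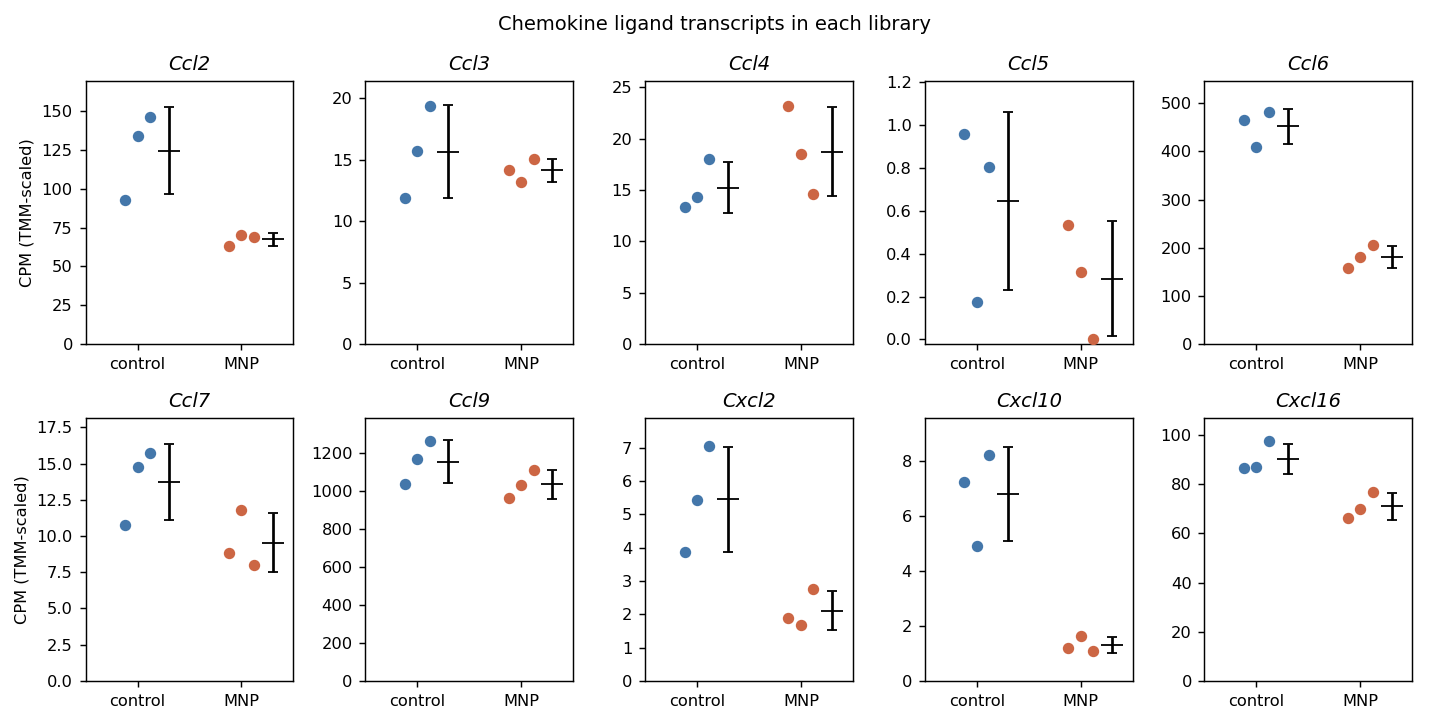
Level of each chemokine ligand in every library, in CPM (linear axes), for 3 control (blue) and 3 MNP (orange) libraries, with the mean and SD in black. The MNP points of Ccl2, Ccl6, Cxcl2, Cxcl10 and Cxcl16 lie below all control points, and those of Ccl3, Ccl4, Ccl5, Ccl7 and Ccl9 overlap them.

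The libraries held between 20262859 and 23042146 counts. Levels are in CPM, that is, counts divided by library size and TMM factor, and on this scale 1 count equals 0.0424 to 0.0483. The structural RNA Gm26917 took 1.02% of the counts of MNP 1 and 0.251% to 0.444% of those of the other 5 libraries. Genes with a count numbered 24062, 20935 and 20222 in controls 1 to 3 and 18672, 18655 and 18240 in MNP libraries 1 to 3. These numbers did not overlap between the groups, and neither did the TMM factors (1.02 to 1.04 in controls, 0.958 to 0.978 in MNP libraries). The part of this difference in the results for low-count genes was not tested. Without control 1 and MNP 1 together, the same 6 ligands were called lower. The macrophage markers Adgre1, Csf1r, Cd68, Itgam, Fcgr1, Mertk and Lyz2 were all expressed, with a summed level of 18775 to 19489 CPM in controls and 16658 to 17687 CPM in MNP libraries. Of these 7, 4 fell (Adgre1, Fcgr1, Mertk and Lyz2), by 1.12-fold to 1.42-fold, and 0 rose. The shares of all tested genes were 8.35% and 9.11%. Summed markers of B cells were at 1.53 to 3.21 CPM in controls and 0.721 to 1.34 CPM in MNP libraries. Those of stromal and endothelial cells were at 18.5 to 24.2 CPM and 14.5 to 17.6 CPM, most of it Kdr, which fell 1.38-fold. Those of mast cells, basophils and eosinophils were at 18.1 to 21.7 CPM and 23.2 to 26.3 CPM. Of that list 3 were tested, and only Kit rose, by 1.70-fold (9.90 to 16.8 CPM). The 2 others had lower means after MNP and were not called. These were Siglecf (7.27 to 5.19 CPM, edgeR adjusted p = 0.0569) and Prg2 (2.41 to 1.96 CPM, edgeR adjusted p = 0.618). None of these sums overlapped between the groups, and their part in the ligands' results was not tested.

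Cxcl10, which binds the receptor CXCR3 and attracts activated T cells, had the largest decrease of the 10. Its level was 7.24, 4.91 and 8.23 CPM in controls 1 to 3 and 1.21, 1.62 and 1.10 CPM in MNP libraries 1 to 3. The groups lay well apart, and the counts behind these values were 113 to 194 in controls and 23 to 36 in MNP libraries. The log2 fold change was -2.37 ± 0.26 (SE; 95% interval -2.93 to -1.80, edgeR adjusted p = 2.55e-05), and only 0.411% of tested genes had a lower one. Under 17 alternative settings it stayed between -2.55 and -2.20. Among them were the omission of each library and a stricter p threshold, which leaves the estimate unchanged by construction.

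The sequence upstream of Cxcl10 is shown because this ligand fell furthest, that of Cxcl2 because it is the other called CXC ligand with a sequence, and those of Ccl6 and Ccl9 because these adjacent genes differed in their response. Each is the 250 bases before the annotated start, 5′ to 3′ on the gene's strand, from RefSeq on GRCm38.p6, an older build than the GRCm39 named in the submitters' processing notes. The intervals are chr5:92348890-92349139 (minus strand) for Cxcl10, chr5:90903649-90903898 (plus strand) for Cxcl2, chr11:83593088-83593337 (minus strand) for Ccl6 and chr11:83578637-83578886 (minus strand) for Ccl9. Capitals mark every match, on either strand, to the NF-kB consensus, the interferon-stimulated response element (ISRE, GAAA and GAAA with any 2 bases between them), the interferon gamma-activated site (GAS, TTCNNNGAA), the AP-1 site (TGANTCA) and the antioxidant response element (ARE, TGACNNNGC) bound by NRF2.
Cxcl10: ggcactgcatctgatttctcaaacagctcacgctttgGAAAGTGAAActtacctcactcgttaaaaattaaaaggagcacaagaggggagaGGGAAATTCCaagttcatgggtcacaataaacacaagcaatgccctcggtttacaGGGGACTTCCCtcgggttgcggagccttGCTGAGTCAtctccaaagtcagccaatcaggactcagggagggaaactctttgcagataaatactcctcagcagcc
Cxcl2: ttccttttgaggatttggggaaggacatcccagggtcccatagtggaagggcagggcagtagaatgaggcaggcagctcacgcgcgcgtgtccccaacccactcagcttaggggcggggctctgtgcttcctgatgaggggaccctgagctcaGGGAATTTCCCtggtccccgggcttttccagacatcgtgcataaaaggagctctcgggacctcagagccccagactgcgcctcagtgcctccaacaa
Ccl6: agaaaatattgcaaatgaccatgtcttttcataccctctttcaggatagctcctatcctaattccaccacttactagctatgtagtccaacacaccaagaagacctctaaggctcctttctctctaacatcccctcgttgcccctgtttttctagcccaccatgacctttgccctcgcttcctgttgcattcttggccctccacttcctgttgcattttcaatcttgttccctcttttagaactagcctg
Ccl9: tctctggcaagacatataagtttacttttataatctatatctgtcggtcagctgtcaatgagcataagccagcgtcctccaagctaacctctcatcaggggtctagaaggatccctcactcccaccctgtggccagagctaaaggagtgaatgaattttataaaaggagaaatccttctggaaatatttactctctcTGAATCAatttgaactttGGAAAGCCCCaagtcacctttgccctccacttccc

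The Cxcl10 sequence held an ISRE match, GAAAGTGAAA, that began 213 bases before the start. It also held NF-kB matches beginning 159 bases (GGGAAATTCC) and 104 bases (GGGGACTTCC) before it, the latter overlapping another match shifted by 1 base. An AP-1 match lay 74 to 68 bases before the start, inside an ARE match on the other strand. In Cxcl2 a pair of overlapping NF-kB matches on opposite strands began 97 bases before the start, as GGGAATTTCC. Ccl9 held an NF-kB match on the opposite strand, which reads GGAAAGCCCC on the strand shown, and an AP-1 match, TGAATCA. Ccl6 and Ccl3 held no match to any of the 5 motifs in this window. Of 32817 upstream sequences of the same length, 7.25% held the NF-kB consensus, 2.97% the ISRE, 7.01% the GAS, 6.75% the AP-1 site and 10.2% the ARE. Sequences were matched for 5 of the 10 ligands, of which 3 held the NF-kB consensus, 1 the ISRE, 2 the AP-1 site, 1 the ARE and 0 the GAS. A match describes letters only and was not tested for binding.

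Cxcl2, a ligand of the receptor CXCR2 that attracts neutrophils, was low in these cultures. It was at 3.88, 5.43 and 7.04 CPM in the controls and 1.88, 1.67 and 2.77 CPM in the MNP libraries. The groups did not overlap, although the controls spread 1.81-fold. The log2 fold change was -1.37 ± 0.27 (edgeR adjusted p = 0.00318). Its receptor CXCR2 is typical of neutrophils, and neutrophil markers moved the same way. Of 10 listed, 9 were tested, 5 fell and 0 rose, against 8.35% lower and 9.11% higher of all tested genes. Their summed level was 185 to 274 CPM in controls and 135 to 154 CPM in MNP libraries. The defining marker Ly6g was at 0 in 4 libraries and at no more than 0.0956 CPM in the others. The part of these markers in the Cxcl2 result was not tested.

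Cxcl16 is made as a transmembrane protein that binds phosphatidylserine and oxidised lipoprotein, and its shed form attracts cells with the receptor CXCR6. It was at 86.5, 86.9 and 97.5 CPM in the controls and 66.1, 69.7 and 76.9 CPM in the MNP libraries. The decrease was small, with a log2 fold change of -0.35 ± 0.07 (edgeR adjusted p = 0.00511), but the groups did not overlap and the call held in all 17 alternatives. Adam10, the main protease that sheds Cxcl16, rose 1.18-fold (218 ± 10.1 to 256 ± 7.13 CPM, SD, n = 3 per group, edgeR adjusted p = 0.0106). Adam17, a related sheddase, fell 1.24-fold (537 ± 38.8 to 431 ± 28.3 CPM, edgeR adjusted p = 0.00538).

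Ccl2 and Ccl7 both signal through CCR2, the receptor that brings monocytes out of the bone marrow and into tissue, and their genes are neighbours on chromosome 11 in the RefSeq order of GRCm38.p6. Ccl2 was at 92.9, 134 and 146 CPM in the controls and 63.0, 70.6 and 68.7 CPM in the MNP libraries. Control 1 was the lowest control for Ccl2, and the MNP libraries lay close together, with an SD of 5.88% of their mean against 22.5% in the controls. The log2 fold change of Ccl2 was -0.88 ± 0.13 (edgeR adjusted p = 0.000261). Ccl7 was at 10.8, 14.7 and 15.7 CPM in the controls and 8.84, 11.8 and 7.98 CPM in the MNP libraries, so that MNP 2 lay above control 1. Its log2 fold change was -0.53 ± 0.17 (edgeR adjusted p = 0.0481). The ratio of Ccl2 to Ccl7 was 8.62 to 9.31 in the controls and 5.97 to 8.61 in the MNP libraries. An exact two-sided permutation test of this ratio, on the log scale, gave p = 0.10, the smallest that 3 against 3 libraries allow. The groups were barely separate, since control 1 (8.618) and MNP 3 (8.611) were nearly equal.

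Ccl6 and Ccl9, CC ligands of the receptor CCR1 that are known from rodents, were the most abundant of the 10, and they lie side by side in the chromosome 11 cluster that runs Ccl5, Ccl9, Ccl6, Ccl3 and Ccl4. Ccl6 was at 464, 410 and 481 CPM in the controls and 159, 180 and 205 CPM in the MNP libraries. The groups were far apart, the spread within each being small beside the gap, and the log2 fold change was -1.32 ± 0.09 (edgeR adjusted p = 2.37e-07). Ccl9 was at 1035, 1167 and 1259 CPM in the controls and 962, 1029 and 1112 CPM in the MNP libraries. These ranges overlapped, and the log2 fold change of -0.16 ± 0.08 (95% interval -0.32 to 0.0058) did not pass (edgeR adjusted p = 0.182). Ccl9 passed in 3 of 17 alternatives, among them without control 1 (log2 -0.22, edgeR adjusted p = 0.0258) and with library totals alone (-0.25, adjusted p = 0.0278).

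The difference between Ccl6 and Ccl9 can be read within each library. The ratio of Ccl6 to Ccl9 in CPM was 0.449, 0.351 and 0.382 in the controls and 0.165, 0.175 and 0.184 in the MNP libraries. The ratios did not overlap, and their exact two-sided permutation p was 0.10, again the smallest possible. Of all counts of the 10 ligands, Ccl9 took 61.4% ± 1.53 in controls and 73.9% ± 0.172 in MNP libraries (SD, n = 3 per group). Ccl6 took 24.1% ± 2.47 and 12.9% ± 0.713. Summed over the 10 ligands, the level was 1727, 1852 and 2053 CPM in controls and 1299, 1396 and 1504 CPM in MNP libraries, which is 0.746 of the control mean (exact two-sided permutation p = 0.10).

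**Figure D2:**
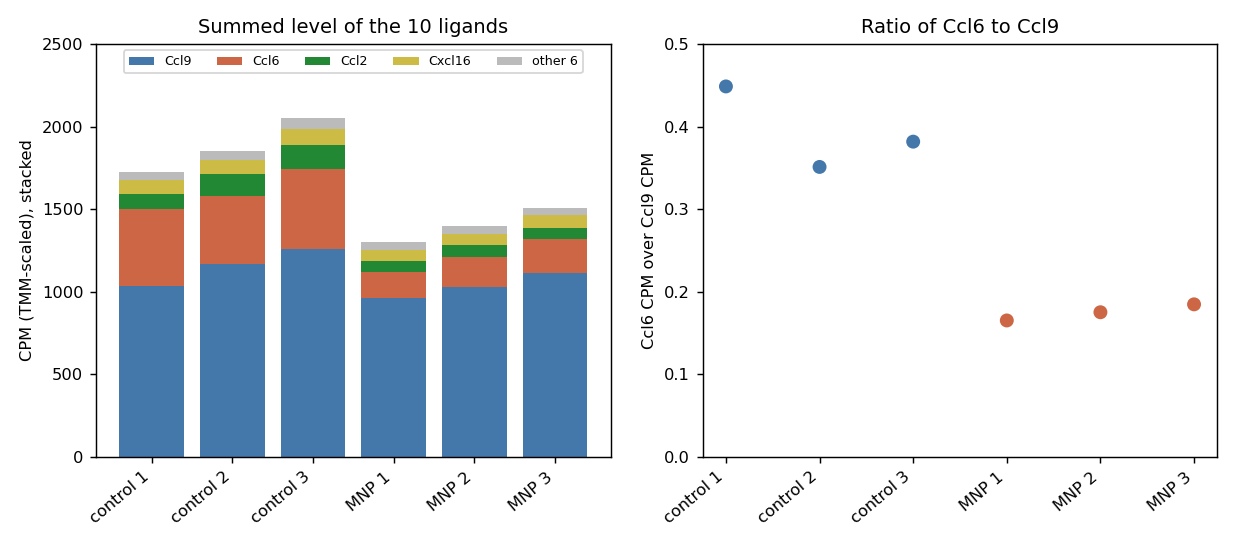
Left, CPM (TMM-scaled) of the 10 ligands stacked in each library, with Ccl9, Ccl6, Ccl2 and Cxcl16 shown separately and the remaining 6 summed in grey. Right, the ratio of Ccl6 to Ccl9 in each library (controls blue, MNP orange), which was 0.351 to 0.449 in controls and 0.165 to 0.184 in MNP libraries.

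Ccl3, Ccl4 and Ccl5 are inflammatory CC ligands that attract T cells and monocytes, and none of them passed the test. Ccl3 was at 11.8, 15.7 and 19.4 CPM in the controls and 14.1, 13.2 and 15.1 CPM in the MNP libraries, so that all MNP values fell within the control range. Its log2 fold change was -0.15 (95% interval -0.48 to 0.18, edgeR adjusted p = 0.547), and it turned positive, at 0.041, without control 3. Ccl4 was the one ligand of the 10 with a positive log2 fold change.

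Ccl4 was at 13.3, 14.3 and 18.0 CPM in the controls and 23.2, 18.5 and 14.6 CPM in the MNP libraries. MNP 1 and MNP 2 were above all controls and MNP 3 was within their range. The log2 fold change was 0.30 (95% interval -0.045 to 0.64, edgeR adjusted p = 0.232). The intervals of Ccl3 and Ccl4 leave out a decrease as large as that of Ccl2, whose log2 fold change was -0.88. The ratio of Ccl3 to Ccl4 was 0.888 to 1.09 in controls and 0.608 to 1.03 in MNP libraries, which overlap (exact two-sided permutation p = 0.20).

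Ccl5 was near the counting limit, with 20, 4 and 19 counts in the controls and 11, 7 and 0 in the MNP libraries. These are 0.959, 0.174 and 0.806 CPM and 0.532, 0.316 and 0 CPM, and a count of 0 in MNP 3 allows up to 0.143 CPM (3 counts, counting error only). The interval of its log2 fold change ran from -2.93 to 0.59 (edgeR adjusted p = 0.369). A difference was not detectable at this depth and with this spread between libraries (SD 64.4% of the mean in controls). T and NK cells are another source of Ccl5. Cd3e was at 0 in every library, and Cd3g and Cd3d had no more than 0.261 CPM, while the NK marker Klrb1c, at 0.526 to 1.17 CPM, was about as low as Ccl5 itself. Of the 11 listed T and NK cell markers, 9 were in the files, 2 were tested and 1 fell, where 8.35% of all tested genes fell. It was Cd4 (17.1 ± 2.32 to 3.94 ± 0.705 CPM). The summed level of the list was 16.0 to 20.0 CPM in controls and 4.45 to 5.50 CPM in MNP libraries, most of it Cd4. The part of these cells in the Ccl5 values was not tested.

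Within a group the ligands did not all rank the libraries alike. Control 1 was the lowest control for 7 of the 10 ligands, and control 3 the highest for 9. In the controls, the SD was between 6.89% and 29.0% of the mean for 9 ligands and 64.4% for Ccl5. In the MNP libraries it was between 5.88% and 27.7% for the same 9 and 94.7% for Ccl5. Across the 6 libraries, deviations from the group mean ran together most closely for Cxcl2 with Ccl9 and with Ccl3 (Pearson r = 0.911 for each) and ran opposite for Ccl4 and Ccl6 (r = -0.546). These are descriptions over 6 libraries that share depth and scaling.

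Levels can be set against each other only per transcript length, taken from the principal transcript in GENCODE M21. In CPM per kilobase, the control means were 384 ± 37.5 for Ccl9, 314 ± 25.9 for Ccl6, 153 ± 34.4 for Ccl2, 33.4 ± 2.31 for Cxcl16, 23.1 ± 3.75 for Ccl4, 20.4 ± 4.92 for Ccl3, 17.2 ± 3.27 for Ccl7, 6.21 ± 1.56 for Cxcl10, 4.92 ± 1.42 for Cxcl2 and 1.21 ± 0.782 for Ccl5 (SD, n = 3). The control ranges of Ccl4 and Ccl3, of Ccl3 and Ccl7, and of Cxcl10 and Cxcl2 overlapped, and those of the other neighbours in this order did not. In the MNP libraries Ccl4 (28.4 ± 6.54 CPM per kilobase) stood above Cxcl16 (26.3 ± 2.05), and Cxcl2 (1.90 ± 0.527) above Cxcl10 (1.20 ± 0.253). The ranges of Ccl4 and Cxcl16 overlapped there, and those of Cxcl2 and Cxcl10 did not. The order in controls was the same with the longest transcript of each gene.

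**Figure D3:**
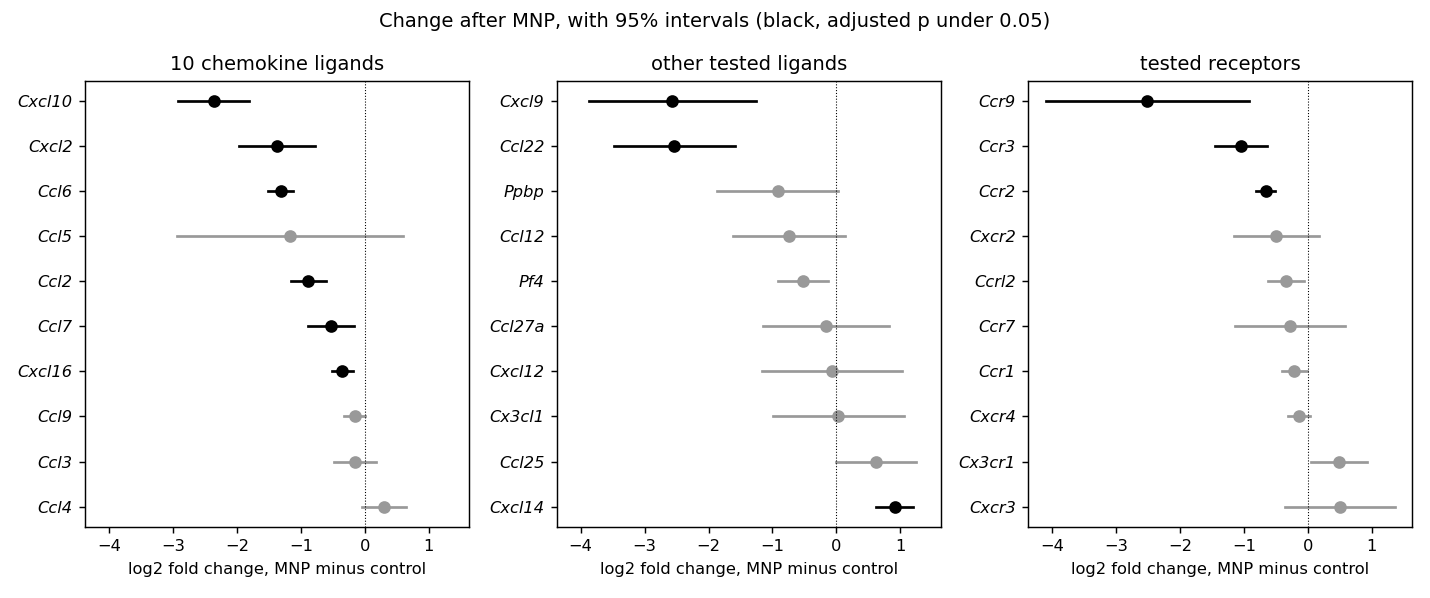
Log2 fold change (MNP minus control) with its 95% interval for the 10 ligands, the 10 other ligands tested and 10 receptors tested, with black for genes called at an adjusted p under 0.05 and grey for the rest. Called genes lie left of 0 except Cxcl14.

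Most other chemokine ligands of the mouse were at or near 0. Of 28 listed, all were in the files, 6 had no count in any library, and 10 were tested. The other 18 reached at most 19 counts in any library. Of the 10 tested, 2 fell and 1 rose, against 8.35% lower and 9.11% higher of all tested genes. Their median log2 fold change was -0.34. Ccl22, which attracts regulatory T cells through CCR4, was at 2.11, 1.96 and 2.54 CPM in controls and 0.193, 0.361 and 0.574 CPM in MNP libraries (log2 -2.53 ± 0.44, edgeR adjusted p = 0.00124). Cxcl9, which shares the receptor CXCR3 with Cxcl10, was at 1.20, 1.22 and 0.721 CPM and 0.0483, 0.316 and 0.143 CPM (log2 -2.57 ± 0.60, edgeR adjusted p = 0.00982). Both reached the expression filter only through the control libraries, and a gene admitted that way can scarcely be called higher. Their MNP values stood on few counts, so the size of these decreases is uncertain. Under a stricter expression filter, 2 of the other ligands were called. Dendritic cells are a known source of Ccl22. Of 8 listed dendritic cell markers, 6 were tested, 1 fell (Siglech, 4.93-fold) and 0 rose, where 8.35% of all tested genes fell. Siglech too reached the expression filter only through the control libraries. Their summed level was 400 to 470 CPM in controls and 355 to 391 CPM in MNP libraries, nearly all of it Itgax, which macrophages also express and which was not called (392 to 463 CPM and 351 to 387 CPM, edgeR adjusted p = 0.0805). The other 7 were at no more than 2.91 CPM in any library. Their part in the Ccl22 result was not tested.

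Cxcl14, a ligand of epithelia and other tissues, went the other way. It was at 7.09, 8.91 and 10.1 CPM in the controls and 17.6, 15.9 and 16.0 CPM in the MNP libraries, with no overlap (log2 0.92 ± 0.13, edgeR adjusted p = 0.000300). The 7 that were tested and not called had log2 fold changes between -0.92 (Ppbp) and 0.62 (Ccl25). Pf4 and Ppbp, ligands of platelets, were at 16.0 ± 4.89 and 1.22 ± 0.339 CPM in controls and 11.2 ± 0.433 and 0.648 ± 0.210 CPM in MNP libraries (adjusted p = 0.0692 and 0.180, edgeR). The megakaryocyte marker Gp9 had at most 0.424 CPM, while Itga2b fell 4.84-fold. Without control 1, 5 of these ligands were called, against 3 with it.

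Receptors through which the ligands act were measured in the same macrophages. Of 22 listed chemokine receptors, 10 were tested, 3 fell and 0 rose, with a median log2 fold change of -0.31. With library totals alone, 5 of them were called. Only 2 were called under the stricter filter, at an adjusted p under 0.01, or without control 2, MNP 1 or MNP 3. Ccr2, the receptor of Ccl2 and Ccl7, was at 84.7, 85.8 and 78.4 CPM in controls and 49.6, 53.7 and 54.3 CPM in MNP libraries (edgeR adjusted p = 1.49e-05). The groups did not overlap, so that for Ccl2 and Ccl7 both ligand and receptor fell.

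Ccr1, the receptor of Ccl6 and Ccl9 among others, was at 52.1 ± 1.93 and 44.9 ± 5.82 CPM and was not called (edgeR adjusted p = 0.126). Cxcr2 was at 2.26 ± 0.371 and 1.60 ± 0.351 CPM (edgeR adjusted p = 0.307), and Cxcr3 at 1.36 ± 0.310 and 1.93 ± 0.836 CPM (edgeR adjusted p = 0.431). Cxcr6, the receptor of Cxcl16, had at most 6 counts in a library and was not tested. Ccr3, best known from eosinophils, fell 2.06-fold from 13.7 ± 3.18 to 6.67 ± 1.44 CPM, and Ccr9, a gut-homing receptor, was at 0.912 ± 0.453 and 0.153 ± 0.158 CPM (edgeR adjusted p = 0.0316). Ccr9 had at most 33 counts in any library. It reached the expression filter only through the controls, and a gene admitted that way can scarcely be called higher.

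Genes that are known to act on chemokine proteins changed in both directions. Of 11 listed, all were tested, 3 rose and 6 fell, against 9.11% higher and 8.35% lower of all tested genes. Mmp12, the macrophage elastase, which can cut chemokines, rose 2.24-fold from 1946 ± 150 to 4359 ± 133 CPM (edgeR adjusted p = 4.82e-08), and the collagenase Mmp8 rose 1.55-fold. Dpp4, which trims the amino end of chemokines such as Cxcl10, was at 1.52 ± 0.338 and 0.205 ± 0.0762 CPM (7.29-fold lower, edgeR adjusted p = 0.00106). Like Ccr9, Dpp4 reached the expression filter only through the controls. Mmp14 fell 2.98-fold, Mmp9 1.74-fold, and Sdc1, a heparan sulfate proteoglycan of the kind that holds chemokines at the cell surface, 1.32-fold.

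Among 18 genes of transcription factors and regulators that act on chemokine genes, 8 fell, 0 rose and 10 were not called. Of all tested genes, 8.35% fell and 9.11% rose. Those of interferon signalling included Irf7 (30.0 ± 6.46 to 8.66 ± 0.789 CPM, 3.46-fold lower), Irf1 (2.05-fold lower), Stat2 (1.62-fold lower) and Irf9 (1.52-fold lower). Irf3 and Irf8 were not called (edgeR adjusted p = 0.625 and 0.273). On the NF-kB side, Nfkbiz, a nuclear cofactor, fell from 28.1 ± 1.11 to 15.8 ± 1.05 CPM (1.78-fold, edgeR adjusted p = 2.65e-05), and Nfkbia, which encodes an inhibitor of NF-kB, fell 1.34-fold (edgeR adjusted p = 0.000559). Of the genes for NF-kB subunits, Relb fell 1.53-fold (edgeR adjusted p = 0.00167) and Nfkb1 fell 1.22-fold (edgeR adjusted p = 0.00528). Rela, which encodes the main activating subunit, was at 25.8 ± 4.17 and 30.5 ± 2.72 CPM and was not called (edgeR adjusted p = 0.185). Rel and Nfkb2 were not called either, nor were Tnfaip3, Jun, Fos, Atf3 and Cebpb.

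Of 14 genes for signals and sensors that induce chemokines, 10 were tested, 3 fell and 1 rose. Among all tested genes 8.35% fell and 9.11% rose. Tlr2, a sensor of bacterial lipoproteins, fell 2.20-fold from 96.9 ± 14.0 to 44.1 ± 3.66 CPM, and Tlr3, a sensor of double-stranded RNA, fell 1.54-fold. Il1b was low, at 1.87 ± 0.555 and 0.693 ± 0.196 CPM (edgeR adjusted p = 0.0264), and Csf1 rose 1.32-fold (edgeR adjusted p = 0.0398). Only 2 of these 14 were called without control 2, without MNP 2 or without MNP 3. Tnf was at 29.8 ± 3.68 and 27.3 ± 2.73 CPM and was not called, and Ifnb1, Ifng, Il6 and Csf2 had at most 3 counts in any library.

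Chemokine mRNAs are short-lived, and of 11 tested genes for mRNA decay factors 1 fell and 1 rose. That is 9.09% in each direction, near the shares of all tested genes (8.35% lower and 9.11% higher). The counts thus do not set these factors apart from other genes. Zfp36l1 fell 1.98-fold (84.3 ± 19.1 to 42.6 ± 3.64 CPM, edgeR adjusted p = 0.000154), and its relative Zfp36l2 rose 1.18-fold (edgeR adjusted p = 0.0106). Zfp36, which encodes tristetraprolin, the best known of the family, was at 33.9 ± 2.00 and 34.3 ± 3.65 CPM. Without MNP 2, 1 of the 11 was called, and without control 1 and MNP 1 together, 4 were.

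The 5 tested genes whose log2 levels over the 6 libraries correlated best with those of Cxcl10 were Entpd1, Mmp14, Clcn5, S100a13 and Klf7. Their Pearson r was 0.997, 0.997, 0.996, 0.994 and 0.994. The size of the change was not alike: they were 1.69-fold, 2.98-fold, 1.17-fold, 1.32-fold and 1.66-fold lower after MNP, and Cxcl10 5.15-fold. The correlation rests on 6 libraries in 2 groups, and 9 of 12892 genes had an r above 0.99.

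**Figure D4:**
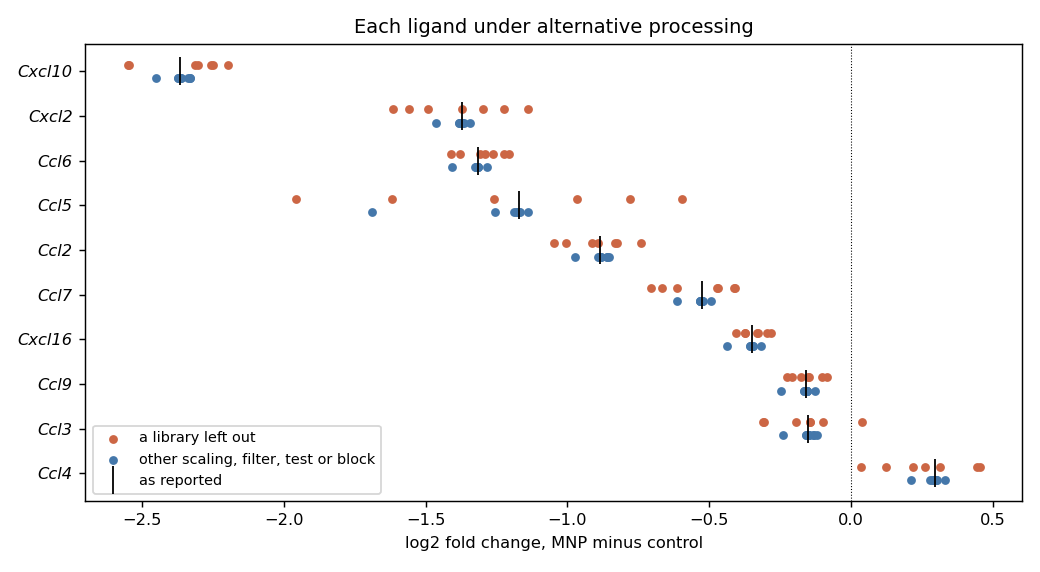
Log2 fold change (MNP minus control) of each ligand as reported (black bar), with libraries left out (orange) and with another scaling, filter, test or the replicate block (blue). The points of Cxcl10, Cxcl2, Ccl6, Ccl2, Ccl7 and Cxcl16 all stay left of 0, and 1 point of Ccl3 crosses it.

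Counts of 4 of the 10 ligands could include reads of a gene on the opposite strand, since the strand setting is not given in the sources used here. Cxcl10 overlaps Art3, which had at most 0.174 CPM in any library, and Ccl6 overlaps E230016K23Rik, with at most 0.431 CPM. Cxcl16 overlaps Zmynd15, at 1.48 to 1.57 CPM in controls and 1.30 to 2.12 CPM in MNP libraries. For Ccl2 the annotation has Gm17268 on the other strand. This symbol was not among the genes of the count files, so its level could not be read.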

How the data were processed

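RNA was sequenced from 6 macrophage libraries made from total RNA with the CORALL RNA-seq V2 kit, per the labels' protocols. Each library has its own deposited file of raw counts by gene symbol, all whole numbers. The submitters' processing notes name fastp, STAR, Salmon and GATK and the build GRCm39. Their roles and versions, the annotation, the strand setting and any use of molecular identifiers are not given in those sources.

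Groups and replicate numbers came from the titles. Library pairs within a group differed by a chi-square per degree of freedom of 7.07 to 19.6, so each counted as 1 sample. Testing used edgeR 4.0.16 under R 4.3.3 (default expression filter, TMM factors, quasi-likelihood F test, MNP minus control), with Benjamini-Hochberg adjustment over 12893 genes. All 10 ligands passed the filter. The SE was obtained by dividing the size of the log2 fold change by the root of F. Levels are TMM-scaled CPM, as mean ± SD of 3. The steps were run on counts simulated with the dispersions of this same fit, with changes planted only in genes of higher counts. That run does not bear on low-count genes or on the scaling. Alternatives included DESeq2 1.42.0 and limma-voom (limma 3.58.1). Intervals and floors cover counting error or the spread between libraries only. Named genes are all 10 ligands, receptors that bind them, and at most 6 called genes of each list with the smallest p. Outside that rule, the remaining genes were named after their values were seen. A few listed genes are not reported here and stand in no list count. The ligands and lists were chosen with earlier results of these data known. Lengths and overlapping genes came from GENCODE M21, and upstream sequences from RefSeq GRCm38.p6.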

Additional observations from a re-analysis of the deposited data

How the results depend on the processing

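The direction of 9 of the 10 ligands held in every alternative that gave a value, and Ccl3, at -0.15, ran from -0.31 to 0.041 with a library left out, turning positive without control 3. Ccl5 could not be fitted under the stricter filter or without both control 1 and MNP 1. The calls of Ccl2, Ccl6, Cxcl2, Cxcl10 and Cxcl16 held in all 17 alternatives. Ccl7 lost its call with limma-voom (-0.53), at an adjusted p under 0.01 (-0.53), and without control 2 (-0.47), control 3 (-0.41), MNP 1 (-0.47) or MNP 3 (-0.41). Between 5 and 7 ligands were called lower, and 0 higher, in all alternatives. The ligands' median was -0.53 under the stricter filter, which removed Ccl5, and ran from -0.81 to -0.50 with a library left out. With library totals alone, 28.1% of called genes were higher, against 52.2% with TMM, and the median of all genes was -0.10.

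Of 2250 genes called in all, 1272 were called at an adjusted p under 0.01 and between 1471 and 2245 with a library left out. Receptors called numbered 5 with library totals alone, against 3, and 2 under the stricter filter or at an adjusted p under 0.01. They numbered between 2 and 4 with a library left out. Other ligands called numbered 5 with no filter and 5 without both control 1 and MNP 1, and between 2 and 5 with a library left out. Counts for mRNA decay factors were 4 with the replicate block, 4 without both control 1 and MNP 1, 1 at an adjusted p under 0.01 and between 1 and 2 with a library left out, and for inducers 2 at an adjusted p under 0.01 and between 2 and 3 with a library left out. The cause of these differences was not tested. The omission of control 1 and MNP 1 together, and all alternatives for decay factors, inducers, transcription factors, processing genes and neutrophil markers, were added after seeing the data.

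Deviations of same-numbered libraries correlated at 0.103, 0.043 and -0.015. Controls 1 and 2 correlated best with the MNP library of the same number, and control 3 with MNP 2 (0.104). Deviations within a group cancel out, so these correlations cannot settle whether the replicate numbers pair the samples. With the replicate block, 2686 genes and 7 ligands were called, Ccl9 among them (-0.16, adjusted p = 0.0235). Depth limits Ccl5 and the receptors and ligands with few counts, and the spread between libraries also limits Ccl5.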
